A study of Mus musculus with 6 samples.

Results

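Transcripts of the proteasome were compared between motor neurons (MNs) made from control and spinal muscular atrophy (SMA) mouse embryonic stem cells (mESCs). Members were the genes of the mouse Psma, Psmb, Psmc, Psmd and Psme families, taken by symbol from a gene table with 34433 symbols. Of these, 43 symbols matched, and 41 of them reached 1 FPKM (fragments per kilobase of transcript scaled to the mapped reads, a level per length) in at least 1 genotype. The other two, Psma5 and Psmb11, were listed below 1 FPKM in both genotypes.

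Both mESC lines carry the human SMN2 transgene and an eGFP reporter under the Hb9 promoter, on an FVB/N background. The Hb9 line keeps mouse Smn (SMN2+/+;mSmn+/+, called wildtype in the labels), and the A2 line lacks it (SMN2+/+;mSmn-/-). Embryoid bodies received 1 µM retinoic acid and 1 µM Smoothened agonist for 5 days, and cells positive for eGFP were then sorted by FACS for RNA-seq, with 3 samples per genotype. Each genotype is 1 mESC line, so an effect of Smn and any other difference between the lines cannot be told apart. The table holds 1 FPKM value per genotype, in which the authors combined the 3 samples, so every value below is theirs for a whole genotype. The values come without replicate error, the authors' own test of each ratio was not used here, no other test of a ratio was possible, and the number of reads behind a value is unknown. In bulk RNA, fewer cells of a type and less RNA per cell cannot be told apart.

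The proteasome is the protease complex that degrades proteins tagged with ubiquitin. Its 20S core is a barrel of outer rings of alpha subunits and inner rings of beta subunits, and only Psmb5, Psmb6 and Psmb7 among the constitutive beta subunits cut peptide bonds. A regulatory particle caps the barrel, with a base of ATPases that unfold substrates and a lid that removes ubiquitin, and together they form the 26S proteasome. Interferon-induced cells exchange the catalytic subunits for Psmb8, Psmb9 and Psmb10 and so form the immunoproteasome. In motor axons and other neurites the complex is known for local protein turnover, and the SMN protein itself is degraded by it.

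Across the series, mouse Smn1 was listed at 137 FPKM in Hb9 control and 5.26 FPKM in A2 SMA MNs. Markers of the labelled cell type were uneven. Mnx1, which encodes HB9, had 41.2 and 44.2 FPKM, whereas Isl1 had 108 and 5.95 FPKM and Chat, the enzyme of acetylcholine synthesis, had 15.5 and 0.34 FPKM. The 6 MN markers found summed to 199 FPKM in Hb9 control and 52.0 FPKM in A2 SMA MNs. The 6 pan-neuronal markers found were all lower in A2 SMA MNs and summed to 994 and 119 FPKM. All 8 markers of undifferentiated mESCs were higher in A2 SMA MNs, and their sum was 278 and 1821 FPKM. The part of this difference in cell state in the results below was not tested. Most genes were lower as well: of the 14926 named genes that reached 1 FPKM in a genotype and were above 0 in both, 65.9% had the lower value in A2 SMA MNs, and the median log2 ratio of A2 SMA over Hb9 control was -0.29.

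The proteasome as a whole was listed at nearly the same level in both genotypes. The 43 members summed to 5558 FPKM in Hb9 control and 5612 FPKM in A2 SMA MNs. Of the 41 that reached 1 FPKM, 22 had the higher value in A2 SMA MNs and 19 the lower, with a median log2 ratio of 0.01. A difference of at least 1.5-fold was seen in 3 members. Psma8 and Psmb8 were that much higher in A2 SMA MNs, beside 12.7% of all genes, and Psme2 was that much lower, beside 35.4% of all genes. The remaining 38 members lay within 1.5-fold, as did 51.9% of all genes.

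The 31 constitutive 26S subunits lay closer together still. Their sum was 5032 FPKM in Hb9 control and 5045 FPKM in A2 SMA MNs. Among the 30 that reached 1 FPKM, 16 were higher and 14 lower, with log2 ratios from -0.34 for Psmb3 to 0.29 for Psmd1, and none differed by 1.5-fold. Their standard deviation was 0.17 on the log2 scale, beside 1.22 over all genes. The symbol rule leaves 2 subunits out of the 31. Shfm1, of the lid, had a log2 ratio of -0.40, below the range given, and Adrm1 had -0.08. Most of the 31 subunits are abundant, and abundant genes had a narrower spread. Among the 5713 genes that reached 30 FPKM in a genotype, 9.66% were at least 1.5-fold higher in A2 SMA MNs, 28.5% were at least 1.5-fold lower, 61.9% lay within that range, and the standard deviation was 1.02.

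**Figure D1:**
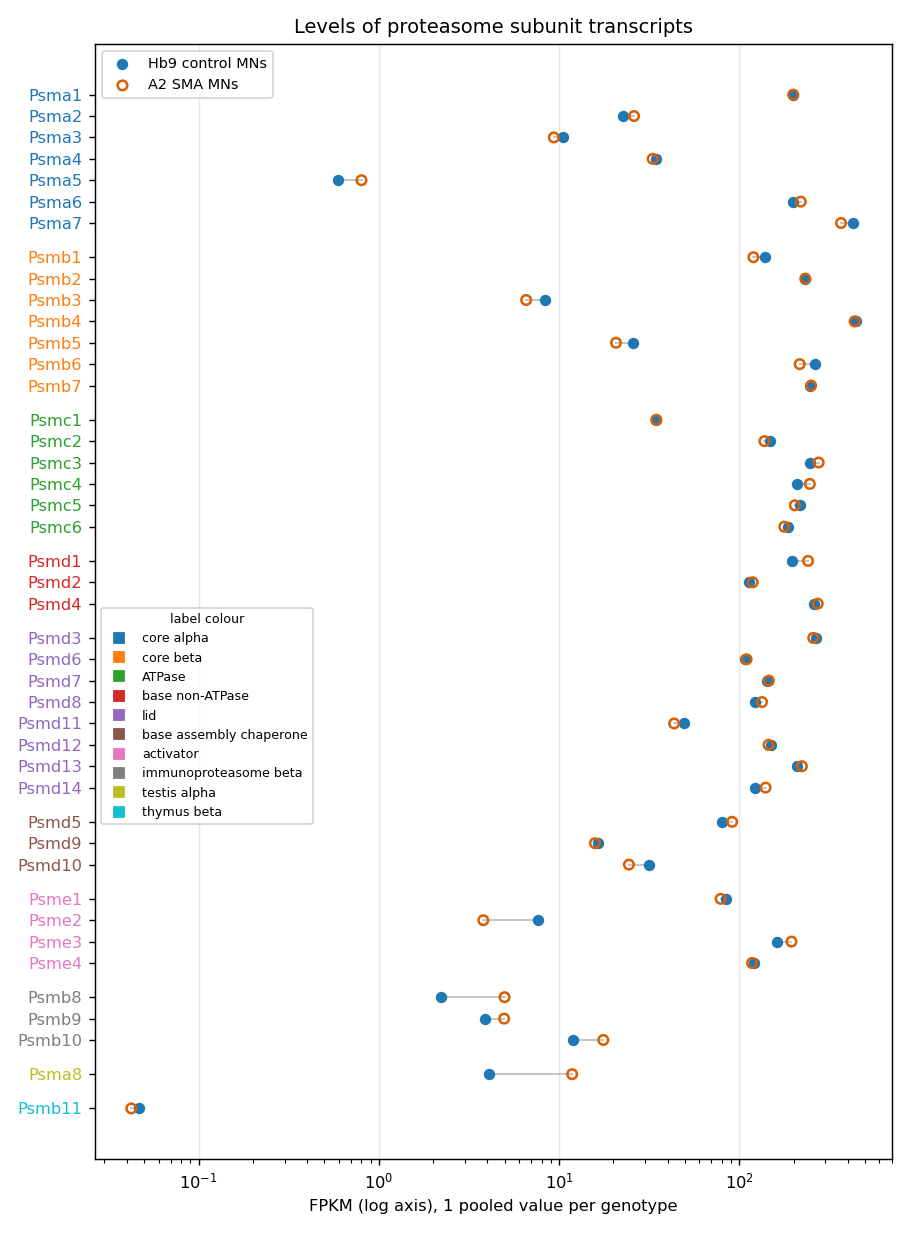
FPKM (log axis) of the 43 proteasome subunit genes, 1 row per gene, with filled points for Hb9 control and open points for A2 SMA MNs and label colours for the part of the complex; each point is the authors' value for a genotype. The pairs of points nearly coincide for most rows, and the longest connecting lines belong to Psma8 (4.06 and 11.8 FPKM), Psmb8 (2.21 and 4.99 FPKM) and Psme2 (7.67 and 3.80 FPKM).

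Because most genes were lower in A2 SMA MNs, the direction of small differences depended on the scale. As deposited, 22 of 41 members were higher. Relative to the median gene 37 of 41 were higher, among them all 17 subunits of the regulatory particle and 28 of the 30 constitutive subunits, and the median of the 41 members was 0.30. Scaled to the reference genes Gusb, Pgk1 and Rpl13a, which shifted values by 0.14, 32 of 41 were higher. Relative to the median gene, Psmb9 and Psmb10 also passed 1.5-fold, so that 4 members were that much higher, beside 20.8% of all genes on that scale, and 1 was that much lower, beside 25.5%.

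**Figure D2:**
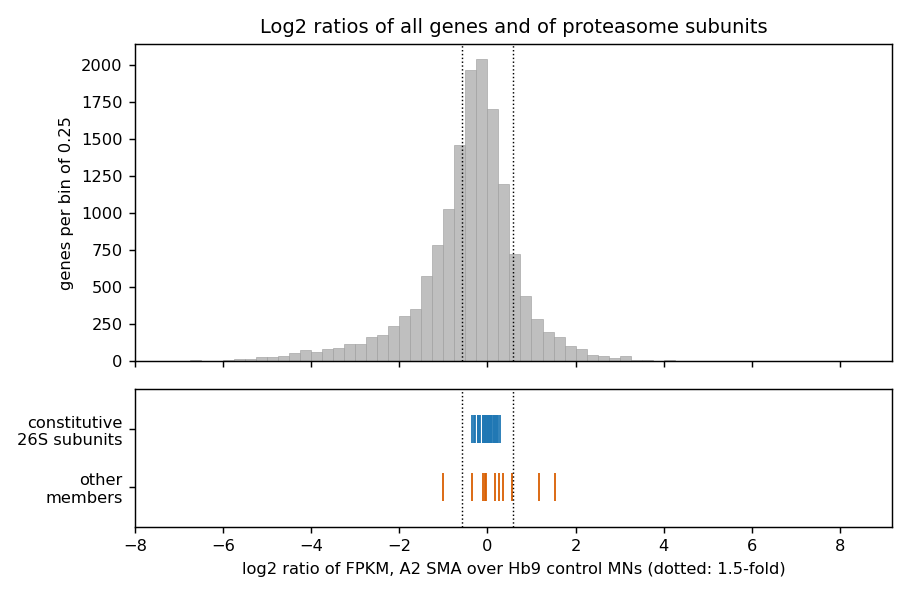
Number of genes per bin of 0.25 in the log2 ratio of A2 SMA over Hb9 control MNs for 14926 genes (upper panel), above the same axis with 1 line per constitutive 26S subunit and per other member (lower panel); dotted lines mark 1.5-fold. The 30 constitutive subunits fall between -0.34 and 0.29, while 3 other members fall outside the dotted lines.

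The order of subunits by level was also nearly the same in both genotypes. Spearman's rho between the FPKM values of Hb9 control and A2 SMA MNs was 0.984 over the 43 members and 0.963 over the 31 constitutive subunits, beside 0.893 over all genes. These are descriptions across genes of the same pair of pooled measurements, and genes are not independent replicates. The 43 include Psma5 and Psmb11, and the 31 include Psma5, both below 1 FPKM. The value over all genes covers only the 14926 that reached 1 FPKM in a genotype. In each genotype 23 of the 31 constitutive subunits had at least 100 FPKM.

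The alpha rings of the core were mixed. Psma7 was the most abundant alpha subunit, with 428 FPKM in Hb9 control and 367 FPKM in A2 SMA MNs (log2 ratio -0.22). Psma1 had 197.9 and 199.3 FPKM (0.01), and Psma6 had 197.8 and 219 FPKM (0.15). Each of these genes differed between genotypes by at most 1.17-fold. Psma6 has 3 entries in the table, and the other ones were listed at 147 and 173 FPKM and at 88.3 and 90.4 FPKM, both higher in A2 SMA MNs as well. Psma2 had 22.6 and 26.1 FPKM (0.21), Psma4 had 34.5 and 33.1 FPKM (-0.06), and Psma3 had 10.5 and 9.36 FPKM (-0.17). Psma5 was listed at only 0.594 and 0.802 FPKM although each alpha ring holds every alpha subunit. Of the 6 alpha genes that reached 1 FPKM, 3 were higher and 3 lower, and the median log2 ratio was -0.03.

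The beta subunits were close to the other genes of the table. Of the 7 constitutive ones 5 were lower and 2 higher in A2 SMA MNs, beside 65.9% of all genes lower, and their median log2 ratio was -0.22, beside -0.29. Relative to the median gene 5 of 7 were higher, with a median of 0.07. Psmb4, which is needed for assembly of the beta ring, was the most abundant of all members, with 446 and 437 FPKM (-0.03). Psmb2 had 232 and 233 FPKM (0.00), Psmb1 had 139.8 and 119.8 FPKM (-0.22) and Psmb3 had 8.34 and 6.57 FPKM (-0.34). The catalytic subunits each lay within 1.5-fold. Psmb5, the chymotrypsin-like one, had 25.7 and 20.7 FPKM (-0.31), and Psmb6, the caspase-like one, had 264 and 216 FPKM (-0.28). Psmb7, the trypsin-like one, had 246 and 250.4 FPKM (0.03). The row of Psmb5 is shared with the microRNA gene Mir686.

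The 17 subunits of the regulatory particle summed to 2779 FPKM in Hb9 control and 2907 FPKM in A2 SMA MNs, with 11 higher and 6 lower, whereas the 14 core subunits summed to 2253 and 2139 FPKM, with 5 higher and 8 lower of the 13 that reached 1 FPKM. The median log2 ratios were 0.04 and -0.06. Relative to the median gene all 17 subunits of the regulatory particle and 11 of the 13 core subunits were higher. The symbol rule leaves out 2 further subunits of the particle. Shfm1, a small lid subunit, had 304 and 231 FPKM (-0.40) and was lower also relative to the median gene. Adrm1, a ubiquitin receptor of whose transcript 78.0% of 50-base windows recur in a copy at another locus, had 13.8 and 13.0 FPKM (-0.08). Whether the core and the regulatory particle differ could not be tested with 1 value per genotype.

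Of the 6 ATPases, 3 were higher and 3 lower. Psmc3 had 247 and 276 FPKM (0.16) and Psmc4 had 209 and 246 FPKM (0.24). Psmc5 had 217 and 203 FPKM (-0.09), Psmc6 had 186 and 178 FPKM (-0.07), and Psmc2 had 148 and 138 FPKM (-0.10). Psmc1 was the least abundant, with 34.4 and 34.7 FPKM (0.01). The ATPases form a ring with 1 copy of each, and their listed levels spanned 7.17-fold in Hb9 control and 7.96-fold in A2 SMA MNs.

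The 3 members of the base that are not ATPases were all higher in A2 SMA MNs, beside 65.9% of all genes lower. Adrm1, the ubiquitin receptor that the symbol rule leaves out, was lower (-0.08). Psmd1, a large scaffold of the base, had 197 and 241 FPKM (0.29), in a row that it shares with its neighbour Armc9. Its ratio was the highest among the 30 constitutive subunits that reached 1 FPKM. The row of Psmd1, like those of Psma1, Psmc3, Psmc4, Psmc5 and Psme4, carries the status FAIL of Cuffdiff, and the reason is not given. Psmd2, the other scaffold, had 113 and 119 FPKM (0.07), and Psmd4, a receptor for ubiquitin chains, had 258 and 272 FPKM (0.08). Of the 8 lid genes among the members 5 were higher and 3 lower. Psmd14, the deubiquitinase of the lid, had 122.1 and 140.0 FPKM (0.20), and its partner Psmd7 had 142 and 146 FPKM (0.04). Psmd3 was the most abundant lid gene, with 267 and 257 FPKM (-0.05). Psmd11 was the least abundant, with 49.7 and 43.5 FPKM (-0.19). Psmd6, Psmd8, Psmd12 and Psmd13 had log2 ratios from -0.04 to 0.13.

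**Figure D3:**
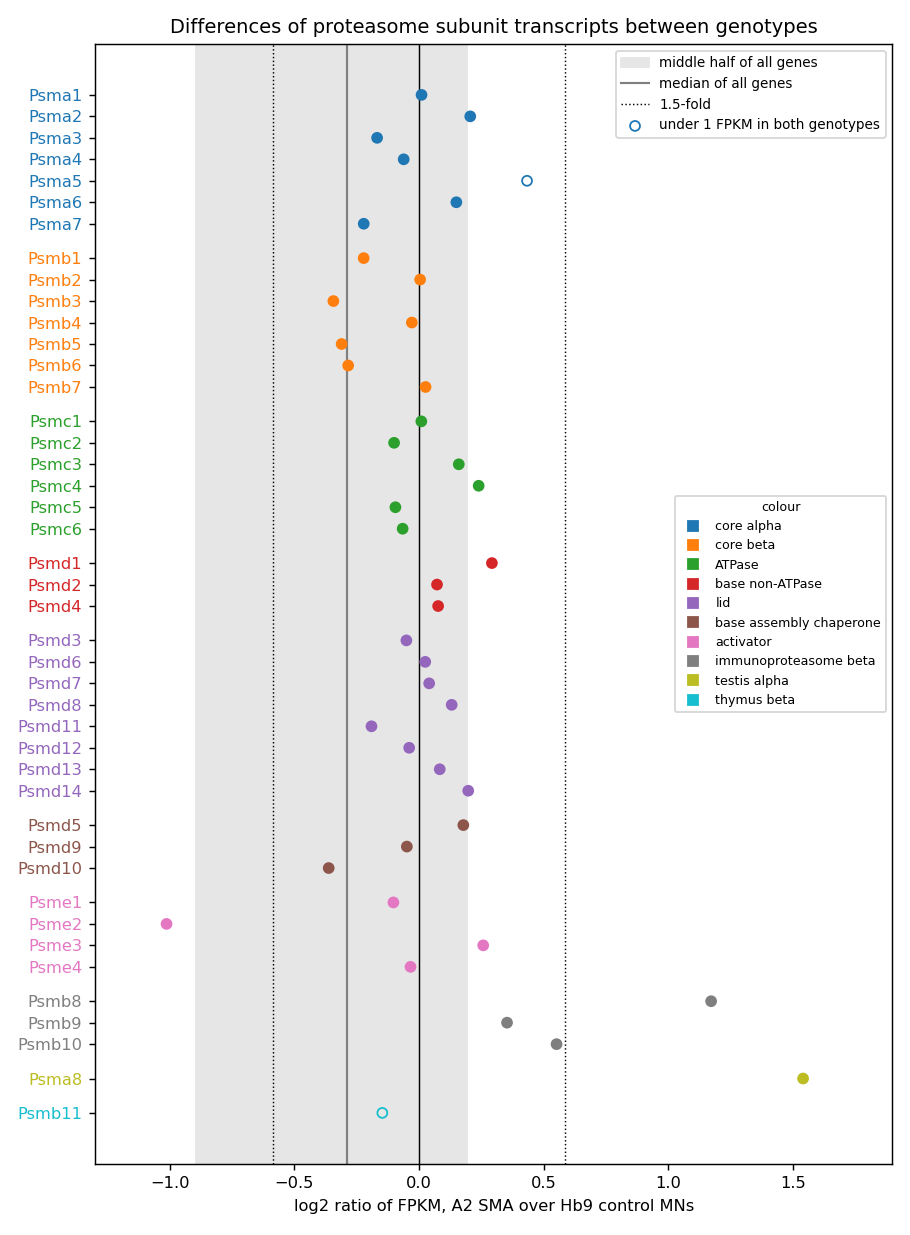
Log2 ratio of A2 SMA over Hb9 control MNs for the 43 members, grouped and coloured by part of the complex, with 1 point per gene (open where both values are under 1 FPKM), the median and quartiles of all genes as a grey line and band, and dotted lines at 1.5-fold. The 8 lid genes lie between -0.19 and 0.20 and the 7 constitutive beta genes between -0.34 and 0.03, while Psma8, Psmb8 and Psme2 stand outside 1.5-fold.

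Subunits that occupy equal numbers of places in the complex were listed at very unequal levels. The highest alpha subunit exceeded the lowest by 721-fold in Hb9 control and 458-fold in A2 SMA MNs, and the highest beta subunit exceeded the lowest by 53.4-fold and 66.5-fold. The low values went with genes whose sequence recurs elsewhere. In the GENCODE M21 transcripts, 54.5% of the 50-base windows of Psma5, 55.8% of those of Psmb3 and 50% of those of Psmb5 also occur at another locus, mostly in pseudogenes. The Psma5 copy Gm8394 was listed at 9.80 and 10.9 FPKM, and the Psma4 copy Gm6542 at 33.1 and 32.0 FPKM, close to Psma4 itself. The Psmd11 copy A730017L22Rik, which holds 18.9% of its windows, had 103 FPKM in Hb9 control and 29.1 FPKM in A2 SMA MNs, a larger difference than that of Psmd11 (49.7 and 43.5 FPKM). In all, 8 constitutive subunits share at least 10% of their windows with another locus, and 7 of these 8 were listed below 50 FPKM in each genotype. Of the 23 other constitutive subunits only Psma2 was, and it shares 3.53%. The median in Hb9 control was 30.1 FPKM for the first set and 198 FPKM for the other. How the reads of such windows were assigned was not tested, so the levels and ratios of these 8 genes are uncertain.

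**Figure D4:**
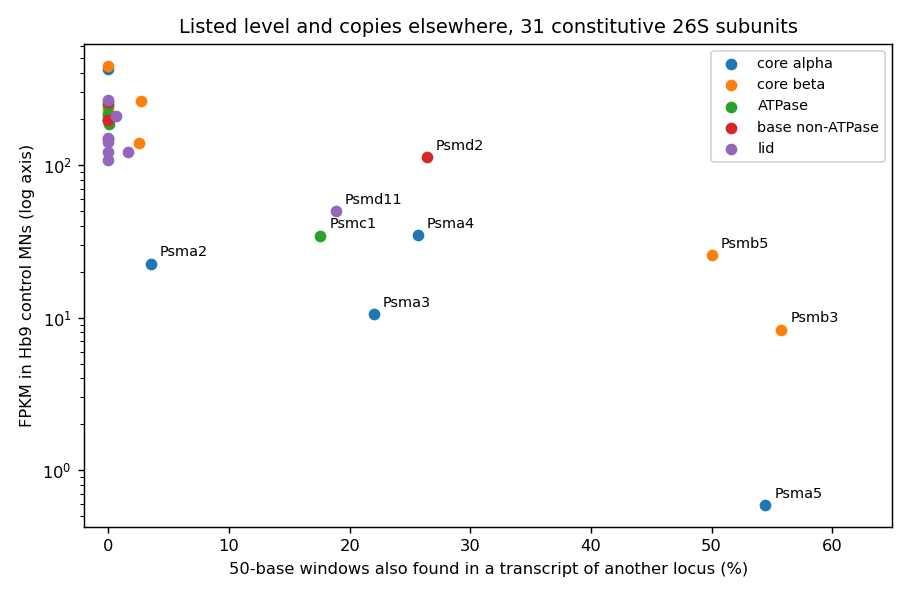
Level in Hb9 control MNs (FPKM, log axis) of the 31 constitutive 26S subunits against the percentage of their 50-base transcript windows that also occur in a transcript of another locus; 1 point per gene, coloured by part of the complex. Psma5, Psmb3 and Psmb5, with 50% to 55.8% of windows shared, lie at 25.7 FPKM or below, and most of the points near 0% lie above 100 FPKM.

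All 3 immunoproteasome subunits had the higher value in A2 SMA MNs, at low levels, beside 65.9% of all genes lower. Psmb8, which takes the place of Psmb5, had 2.21 FPKM in Hb9 control and 4.99 FPKM in A2 SMA MNs, 2.25-fold higher (log2 ratio 1.17). Psmb10, which takes the place of Psmb7, had 12.0 and 17.6 FPKM (0.55). Psmb9, which takes the place of Psmb6, had 3.88 and 4.96 FPKM (0.35). Only Psmb8 passed 1.5-fold, beside 12.7% of all genes at least that much higher. Relative to the median gene all 3 passed it, beside 20.8% of all genes. None of the 3 shares a window with a transcript of a distant locus, although 5.83% of the windows of Psmb8 and 12.5% of those of Psmb9 lie in overlapping neighbours.

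Against their constitutive counterparts these genes stayed minor. Psmb9 stood at 1.47% of Psmb6 in Hb9 control and 2.29% in A2 SMA MNs, and Psmb10 at 4.89% and 7.04% of Psmb7. Psmb8 stood at 8.62% and 24.1% of Psmb5, but the Psmb5 value is 1 of those with copies elsewhere. Together the immunoproteasome subunits came to 3.39% of the sum of the constitutive catalytic subunits in Hb9 control and 5.66% in A2 SMA MNs. Microglia and leukocytes are rich in immunoproteasome, and their markers summed to 19.3 and 29.5 FPKM. Cd68 made up most of that sum, with 16.6 and 23.0 FPKM, whereas the defining marker Ptprc (CD45) was at 0.02 FPKM in both genotypes. Of the other leukocyte markers, Cd74 had 1.13 and 3.20 FPKM, H2-Aa had 0.31 and 1.48 FPKM, Itgam had 0.36 and 0.79 FPKM, Csf1r had 0.22 and 0.79 FPKM, and Aif1 had 0.65 and 0.19 FPKM. In all, 5 of the 7 leukocyte markers had the higher value in A2 SMA MNs, most of them at low levels. Only Cd68, Cd74 and H2-Aa reached 1 FPKM in a genotype, and these 3 were higher, beside 65.9% of all genes lower. The part of other cell types in the immunoproteasome values was not tested.

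The 200 bases before the annotated start of each catalytic gene are shown to set the immunoproteasome genes beside those they replace. They come from RefSeq on GRCm38.p6, a later build than that of the gene table, and run 5′ to 3′ on the strand of the gene. Psmb7 had no entry. Capitals mark the core of an antioxidant response element (TGANNNNGC, bound by Nfe2l1 and Nfe2l2 with small Maf proteins) or an interferon gamma activated site (TTCNNNGAA).
Psmb5 (chr14:54617996-54618195, minus strand): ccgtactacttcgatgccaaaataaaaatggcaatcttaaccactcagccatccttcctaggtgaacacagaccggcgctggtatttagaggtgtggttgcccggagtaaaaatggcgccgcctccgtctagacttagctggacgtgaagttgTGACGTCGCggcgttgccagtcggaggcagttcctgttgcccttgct
Psmb8 (chr17:34197995-34198194, plus strand): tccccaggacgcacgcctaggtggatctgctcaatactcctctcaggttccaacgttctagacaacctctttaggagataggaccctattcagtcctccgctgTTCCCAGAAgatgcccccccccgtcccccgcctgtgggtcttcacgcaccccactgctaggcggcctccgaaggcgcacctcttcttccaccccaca
Psmb6 (chr11:70525157-70525356, plus strand): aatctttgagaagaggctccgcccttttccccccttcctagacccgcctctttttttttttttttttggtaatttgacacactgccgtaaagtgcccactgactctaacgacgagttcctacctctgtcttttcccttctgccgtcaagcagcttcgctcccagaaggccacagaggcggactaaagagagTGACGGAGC
Psmb9 (chr17:34187331-34187530, minus strand): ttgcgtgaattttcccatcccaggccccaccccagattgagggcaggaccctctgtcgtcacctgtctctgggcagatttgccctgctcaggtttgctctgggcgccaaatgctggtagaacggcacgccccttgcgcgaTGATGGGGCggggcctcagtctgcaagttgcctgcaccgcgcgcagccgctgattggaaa
Psmb10 (chr8:105938393-105938592, minus strand): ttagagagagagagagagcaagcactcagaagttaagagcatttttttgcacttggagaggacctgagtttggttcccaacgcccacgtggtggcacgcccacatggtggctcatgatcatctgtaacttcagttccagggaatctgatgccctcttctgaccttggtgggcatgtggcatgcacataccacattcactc

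The activated site lies in Psmb8, with its first base 97 bases before the start. The antioxidant core lies 47 bases before the start in Psmb5, 9 bases before it in Psmb6 and 60 bases before it in Psmb9, and no capitals fall in the printed part of Psmb10. Beyond the printed bases, the antioxidant core also occurs after the start, at base 24 in Psmb8 and at base 42 in Psmb5. In windows from 250 bases before to 50 bases after the start, searched on both strands, the antioxidant core was found in 21 of the 36 members with a RefSeq entry (58.3%) and in 45.0% of all 27025 genes. The activated site was found in 2 of 36 members (5.56%), Psmb8 and Psmd2, and in 9.55% of all genes. The core of the interferon-stimulated response element (GAAANNGAA) was found in 6 of 36 members (16.7%), none of them an immunoproteasome gene, and in 9.76% of all genes. CCAAT was found in 14 of 36 members (38.9%) and in 41.1% of all genes. These matches are letters in a window and not sites of binding.

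Psma8, the alpha subunit that replaces Psma7 in the testis, differed most among the members. It had 4.06 FPKM in Hb9 control and 11.8 FPKM in A2 SMA MNs, 2.91-fold higher (log2 ratio 1.54). It stood at 0.949% of Psma7 in Hb9 control and 3.22% in A2 SMA MNs, and none of its windows recurs elsewhere. Psmb11, the thymic counterpart of Psmb5, was listed at 0.0469 and 0.0424 FPKM.

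Proteasome activators went in different directions. Psme2, which forms a ring with Psme1 that opens the core for peptides, had 7.67 FPKM in Hb9 control and 3.80 FPKM in A2 SMA MNs, 2.02-fold lower (log2 ratio -1.01). Its partner Psme1, with 14.1% of its windows at another locus, was at 84.7 and 78.9 FPKM (-0.10), so Psme2 stood at 9.06% and 4.82% of Psme1. However, 59.3% of the windows of Psme2 recur in its copy Psme2b, and a row that names Psme2b-ps together with 9930111J21Rik1 had 43.3 and 33.5 FPKM. Psme3, the nuclear activator, had 163 and 195 FPKM (0.26), and Psme4, a large activator known for histone turnover, had 121 and 118 FPKM (-0.03). Of the chaperones that assemble the base, Psmd5 had 80.7 and 91.3 FPKM (0.18), Psmd9 had 16.4 and 15.8 FPKM (-0.05) and Psmd10 had 31.4 and 24.4 FPKM (-0.36).

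Genes that work with the proteasome were divided much as all genes were. Of 45 related genes found, 44 reached 1 FPKM, 16 were higher and 28 lower in A2 SMA MNs, beside 65.9% of all genes lower, and the median log2 ratio was -0.16, beside -0.29. Relative to the median gene 26 of 44 were higher, with a median of 0.13. Among those named below, the rows of Psmg1, Usp14, Ube3c, Ubqln4, Nfe2l2 and Uba6 carry the status FAIL. A difference of 1.5-fold was seen in 1 upward (beside 12.7% of all genes) and in 7 downward (beside 35.4%).

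Of 6 genes for core assembly or inhibition 4 were lower, beside 65.9% of all genes, with a median log2 ratio of -0.14. Relative to the median gene 4 of 6 were higher, with a median of 0.15. Pomp, which drives maturation of the beta ring, had 147 and 139 FPKM (-0.09). Psmg1 and Psmg2, partners in building the alpha ring, had 63.1 and 75.4 FPKM (0.26) and 50.5 and 56.5 FPKM (0.16). Psmg3 and Psmg4, the other pair, had 31.7 and 23.3 FPKM (-0.45) and 63.4 and 41.2 FPKM (-0.62). The former pair was thus higher and the latter pair lower in A2 SMA MNs. Psmf1, an inhibitor of the core, had 33.6 and 29.2 FPKM (-0.20).

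Shuttles and enzymes that dock on the proteasome were higher in 6 of 9, with a median of 0.16, beside 65.9% of all genes lower and a median of -0.29. On the scale of the median gene 7 of 9 were higher. Of the 6 higher, 3 (Usp14, Ube3c and Ubqln4) have the status FAIL, and the median without them was 0.10. Rad23b, a shuttle for ubiquitinated proteins, was the most abundant, with 230 and 263 FPKM (0.20). Ubqln4 had the highest ratio, with 67.6 and 97.2 FPKM (0.52), and Ubqln2, in which mutations cause a familial motor neuron disease, had the lowest, with 67.8 and 36.1 FPKM (-0.91). Ubqln1, the most abundant of that family, had 100.2 and 99.7 FPKM (-0.01), so that of these 3 only Ubqln2 differed by 1.5-fold.

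Regulators of proteasome genes were mixed, with 4 higher and 3 lower. Nfe2l1, which raises proteasome genes when the complex is inhibited, had 254 and 235 FPKM (-0.11). Its processing factors Ddi2 and Ngly1 had 50.7 and 69.1 FPKM (0.45) and 5.35 and 6.14 FPKM (0.20). Nfe2l2, the regulator of the antioxidant response, had 36.4 and 55.3 FPKM (0.60), and Keap1, which holds Nfe2l2 for degradation, had 20.7 and 13.4 FPKM (-0.63). The Maf partners Mafg and Mafk had 85.1 and 62.4 FPKM (-0.45) and 7.28 FPKM in each genotype (0.00).

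**Figure D5:**
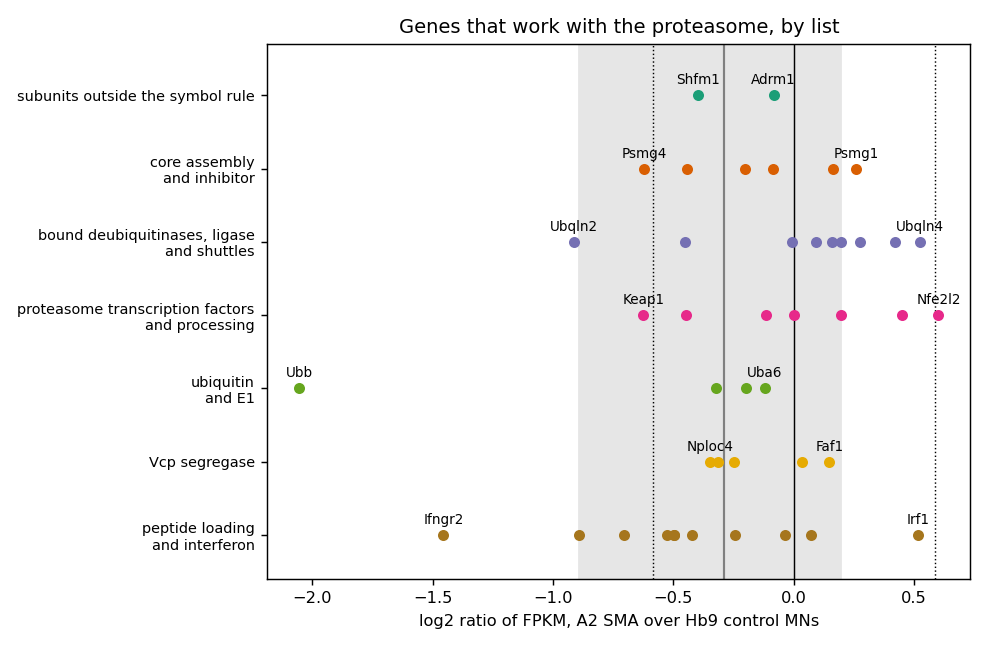
Log2 ratio of A2 SMA over Hb9 control MNs for genes that work with the proteasome, 1 row per list and 1 point per gene counted, with dotted lines at 1.5-fold, the grey line and band at the median and quartiles of all genes, and names for the lowest and highest gene of each list. Ubb (-2.05) and Ifngr2 (-1.46) lie farthest to the left and Nfe2l2 (0.60) farthest to the right.

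Upstream of the proteasome, ubiquitin is activated before it is attached to substrates. Uba1, the main activating enzyme, had 442 FPKM in Hb9 control and 354 FPKM in A2 SMA MNs (-0.32), and Uba6, which also activates ubiquitin, had 22.6 and 20.8 FPKM (-0.12). The polyubiquitin gene Ubb had 10.4 and 2.50 FPKM (-2.05), but 61.0% of its windows also occur at another locus. Rps27a, a fusion of ubiquitin with a ribosomal protein, had 15.0 and 13.1 FPKM (-0.20), with 57.0% of its windows at another locus. The segregase Vcp, which hands substrates to the proteasome, had 21.1 and 17.7 FPKM (-0.25), while its processed copy Vcp-rs, which holds 60.1% of its windows, had 88.1 and 86.6 FPKM.

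Peptides made by the immunoproteasome are loaded on MHC class I, and the genes of that pathway and of interferon signalling were listed beside them. Of 12 found, 11 reached 1 FPKM, 9 were lower and 2 higher in A2 SMA MNs, beside 65.9% of all genes lower, and the median log2 ratio was -0.50, beside -0.29. A 1.5-fold lower value was seen in 3 of the 11, beside 35.4% of all genes, and relative to the median gene 4 of 11 were higher. Tapbp had 83.5 and 81.4 FPKM (-0.04), and B2m, the light chain of MHC class I, had 50.7 and 35.9 FPKM (-0.50). Irf1, an interferon-induced transcription factor, had 28.4 and 40.6 FPKM (0.52). Ifngr2, a chain of the interferon gamma receptor, had 22.7 and 8.29 FPKM (-1.46). The peptide transporter genes Tap1 and Tap2, which belong to the list and to these counts, are named here by a choice made after their values were seen, because they share loci of the table with Psmb9 and Psmb8, on chromosome 17 of NCBI m37. Tap1, in 34318931 to 34334170 with Psmb9, had 10.4 and 6.39 FPKM (-0.71), and Tap2, in 34334665 to 34353266 with Psmb8, had 9.59 and 5.16 FPKM (-0.89). Each transporter gene was therefore lower in A2 SMA MNs, and its immunoproteasome neighbour was higher. Reads of overlapping transcripts cannot be told apart here.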

How the data were processed

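RNA from MNs of 2 mESC lines, Hb9 control and A2 SMA, with 3 samples each, was sequenced from single ends. The authors checked reads with FastQC 0.10.1, trimmed them with cutadapt, mapped them to NCBI m37 with Ensembl annotation using TopHat2 2.04, and used Cufflinks and Cuffdiff (versions not given in the sources used here). The deposited FPKM values are 1 per gene and genotype, combined over samples by Cuffdiff. The same table holds the authors' fold changes, test statistics, p-values and q-values, which were not used. Samples were grouped by the line and genotype in their labels.

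Analysis used Python 3.11.15, numpy 2.4.6, pandas 2.3.3, scipy 1.17.1 and matplotlib 3.10.9. Symbols of Psma, Psmb, Psmc, Psmd and Psme followed by a number were taken, with the entry of highest FPKM for a symbol with several. Log2 ratios had no pseudocount and required 1 FPKM or more in a genotype and a value above 0 in both. With 1 value per genotype, 1.5-fold stood in place of a test. The table gives the status FAIL to 6 members, Psma1, Psmc3, Psmc4, Psmc5, Psmd1 and Psme4, whose FPKM values were kept. Every member could be named, every gene of related and marker lists of up to 7 genes, and of longer lists the 3 most abundant, the highest and the lowest. Of the related lists, 3 genes are not reported here and were left out of the counts. The members and lists were chosen with earlier results of these data known. Further marker lists were of fibroblasts, whose 7 genes summed to 63.6 FPKM in Hb9 control and 32.4 FPKM in A2 SMA MNs, and of endoderm, whose 6 genes summed to 87.5 and 38.4 FPKM. Windows of 50 bases were matched exactly against GENCODE M21 transcripts, and promoters came from RefSeq. The scripts were tested on simulated data. The alternatives were other filters, pseudocounts and folds, summed entries of a symbol, leaving out rows that name several genes or have the status FAIL, other scalings and, chosen after seeing the data, leaving out members with copies.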

Additional observations from a re-analysis of the deposited data

How the results depend on the processing

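Over 14 alternatives, 798 of 810 recomputed values of 71 results moved by 1.5-fold or less, and the other 12 were counts of members. For log2 ratios and medians that limit is 0.58 on the log2 scale. Much of this was fixed in advance. Filters leave the log2 ratio of a gene unchanged, and each scaling shifts all log2 values by a constant of at most 0.29, below the limit. No member or list median at least 1.5-fold from 0 changed sign, which shifts of that size could not bring about. Smaller ones did in 66 of 716 recomputed log2 values, all of them within 0.28 of 0 as reported. Of 58 log2 values, 24 changed sign when centred on the median gene, 24 with upper quartiles set equal and 14 when scaled to Gusb, Pgk1 and Rpl13a. Centred on the median gene, the medians became 0.07 for core beta subunits, 0.26 for ATPases and for core alpha subunits, and 0.15 for genes of core assembly and inhibition. The number at least 1.5-fold higher in A2 SMA MNs, 2 as reported, was 1 with at least 5 FPKM in either genotype, 0 with at least 30 FPKM, 3 when scaled to Gusb, Pgk1 and Rpl13a, and 4 both when centred on the median gene and with upper quartiles set equal. The number at least 1.5-fold lower, 1 as reported, was 0 with at least 30 FPKM and 0 without members that have copies at another locus, an alternative chosen after seeing the data. Members with a higher value, 22 as reported, numbered 37 when centred on the median gene and 37 with equal upper quartiles, and those with a lower value, 19 as reported, then numbered 4 and 4. The number with a lower value was 9 when scaled to Gusb, Pgk1 and Rpl13a and 12 without members that have copies. Scaling and filters change these counts by construction. Psmb8, Psmb9, Psma8 and Psme2 are listed at low FPKM, and the reads behind such values are unknown, so their precision is unknown. No replicate could be left out, because the table has 1 value per genotype. No paired analysis was possible because the result comes from no test and the columns carry no replicate numbers.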
